A study of Homo sapiens with 6 samples.

Results

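The mitochondrial genome encodes its own small set of transcripts, and these were taken as every row of the gene table whose gene name begins with MT-. This rule gave 37 of the 61280 rows: 13 protein-coding genes, 2 ribosomal RNA (rRNA) genes and 22 transfer RNA (tRNA) genes. All 37 matched by gene identifier to the mitochondrial chromosome of GENCODE 29 (GRCh38), and hg38 is the build in the submitters' processing notes. The cells were MDA-MB-231, an established line from a human breast cancer of the triple-negative kind, grown in DMEM with serum. The irradiated group (3 libraries) had been given X-rays at 20 Gy, with RNA taken after 24 h of further culture, and the control group (3 libraries) was the same line left untreated. How long the controls were cultured is not stated, so irradiation and time in culture cannot be told apart. Separate cultures are not named for the replicates either, and p-values then cover only the spread among these libraries, which may be technical.

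Mitochondrial DNA is a small circle that is read from both strands into long precursor RNAs. In most places the tRNAs lie between the other genes, and cutting them out frees the mRNAs and rRNAs. The mRNAs encode core membrane subunits of complexes I, III and IV of the respiratory chain and of the ATP synthase (complex V), and the rRNAs form the mitochondrial ribosome that translates them. Mitochondrial mRNAs carry poly(A) tails, mitochondrial rRNAs carry only short ones, and in cells the rRNAs are the more abundant kind. Whether the libraries were selected for poly(A) RNA, and whether strand was kept, is not given in the sources used here. The mitochondrial genes have no introns, so all positions described are exonic.

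The first set of sequences shows how tightly the genes are packed, because neighbouring genes can share bases and therefore reads. MT-ATP8 (chromosome M, 8366 to 8572, plus strand) and MT-ATP6 (8527 to 9207, plus strand) encode the 2 mitochondrial subunits of the ATP synthase. They overlap by 46 bases, from 8527 to 8572, which is 22.2% of MT-ATP8. MT-ND4L (10470 to 10766) and MT-ND4 (10760 to 12137), both complex I genes, overlap by 7 bases, from 10760 to 10766. All of MT-ATP8 and the last 60 bases of MT-ND4L are shown 5′ to 3′ from the GENCODE 29 transcripts (GRCh38), with the bases shared with the next gene in capitals.
MT-ATP8: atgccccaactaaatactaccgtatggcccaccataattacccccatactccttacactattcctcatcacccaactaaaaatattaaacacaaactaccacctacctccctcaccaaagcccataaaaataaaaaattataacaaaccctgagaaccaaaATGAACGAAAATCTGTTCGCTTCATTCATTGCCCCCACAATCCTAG
MT-ND4L: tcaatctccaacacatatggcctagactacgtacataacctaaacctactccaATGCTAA
In both pairs the shared bases begin with the start codon of the second gene and run to the stop codon of the first.

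The second set shows the 3′ ends of mRNAs, where the poly(A) tail is known to complete the stop codon of some. The annotated gene length was not a multiple of 3 in 6 of the 13 mRNAs (MT-ND1, MT-ND2, MT-CO3, MT-ND3, MT-ND4 and MT-CYB), and in the other 7 it was. The last 30 bases of the 6 are shown, with the incomplete stop codon in capitals, followed by the complete stop codon of MT-CO2.
MT-ND1: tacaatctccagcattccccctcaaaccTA
MT-ND2: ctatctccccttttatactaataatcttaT
MT-CO3: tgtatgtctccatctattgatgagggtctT
MT-ND3: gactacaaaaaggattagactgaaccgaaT
MT-ND4: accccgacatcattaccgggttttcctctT
MT-CYB: taattgaaaacaaaatactcaaatgggccT
MT-CO2: tttgaaatagggcccgtatttaccctaTAG

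Levels are given in deposited TPM, which corrects for transcript length and brings all libraries to a common sum, and the read depth is unknown. Between 14248 and 14889 rows reached 1 TPM per library, and log2(TPM + 1) values correlated across genes at 0.980 to 0.988 within groups and 0.976 to 0.982 between groups. Of 13 cell type markers 6 were tested, and 2 of these fell: VIM, from 1967 ± 39.3 to 1589 ± 8.39 TPM, and AXL, from 187 ± 1.79 to 146 ± 8.37 TPM (SD, n = 3; log2 changes -0.31 and -0.36, adjusted p of 0.00479 and 0.00921 by limma). Both are mesenchymal markers of this line and stayed abundant, as did CD44 at 186 to 268 TPM, while ESR1 stayed at or below 0.39 TPM and PGR was listed at 0 in all libraries. The other 4 tested markers, CD44 among them, were not called. Levels of ERBB2 and of the epithelial markers CDH1 and EPCAM are among those not given, so the markers shown are not a full check of cell identity. The leukocyte marker PTPRC was at or below 0.45 TPM in 5 libraries and at 40.4 TPM in irradiated replicate 1. Its part in the results was not tested.

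Mitochondrial transcripts were a large and similar portion of both groups. Their TPM summed to 118710, 115058 and 101510 in control replicates 1, 2 and 3, against 123485, 120013 and 111537 in irradiated replicates 1, 2 and 3. The groups overlapped: as percent of the library the means were 11.2% ± 0.906 (SD, n = 3) in controls and 11.8% ± 0.615 (SD, n = 3) after irradiation, a difference of 0.659 percentage points. Without control replicate 3, which had the lowest value of all 15 detected members among the controls, the difference was 0.146 points. No p-value is given for sums over the genes.

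Nearly all of this was mRNA. The mRNAs held 96.3% to 96.5% of the mitochondrial TPM in controls and 97.1% to 97.8% in irradiated libraries, so the groups did not overlap. The rRNAs held the rest, 3.54%, 3.67% and 3.57% in controls and 2.21%, 2.62% and 2.94% in irradiated libraries. Weighted by annotated gene length, the rRNA portion was 5.97% ± 0.190 in controls and 4.29% ± 0.529 after irradiation (SD, n = 3). These are shares of reads only if TPM had been divided by that same length, which is not stated. All 22 tRNA rows were listed at 0 in all 6 libraries. These genes are 59 to 75 bases long in the annotation, and a listed 0 can be a failed estimate, so no level is drawn from it.

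The 15 detected genes spanned a wide range of levels. Within the controls, MT-ATP8 was highest at 30745 ± 3435 TPM (SD, n = 3), followed by MT-ND4L at 14182 ± 1143 and MT-ND3 at 10769.9 ± 853. MT-RNR2 was lowest at 585 ± 54.5, and the lowest mRNA was MT-ND1 at 1332 ± 138 TPM, 23.1-fold below MT-ATP8. In that order the control values of MT-ND3 and MT-CO3 overlapped, as did those of MT-ATP6 and MT-CO2, of MT-ND4 and MT-CO1, of MT-RNR1 and MT-ND5, and, barely, of MT-CYB and MT-ND6. The other neighbours in the order did not overlap. Of the 20 rows with the highest mean TPM in the table, 9 were mitochondrial, and MT-ATP8, MT-ND4L and MT-ND3 took ranks 1, 2 and 3 in every library.

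**Figure D1:**
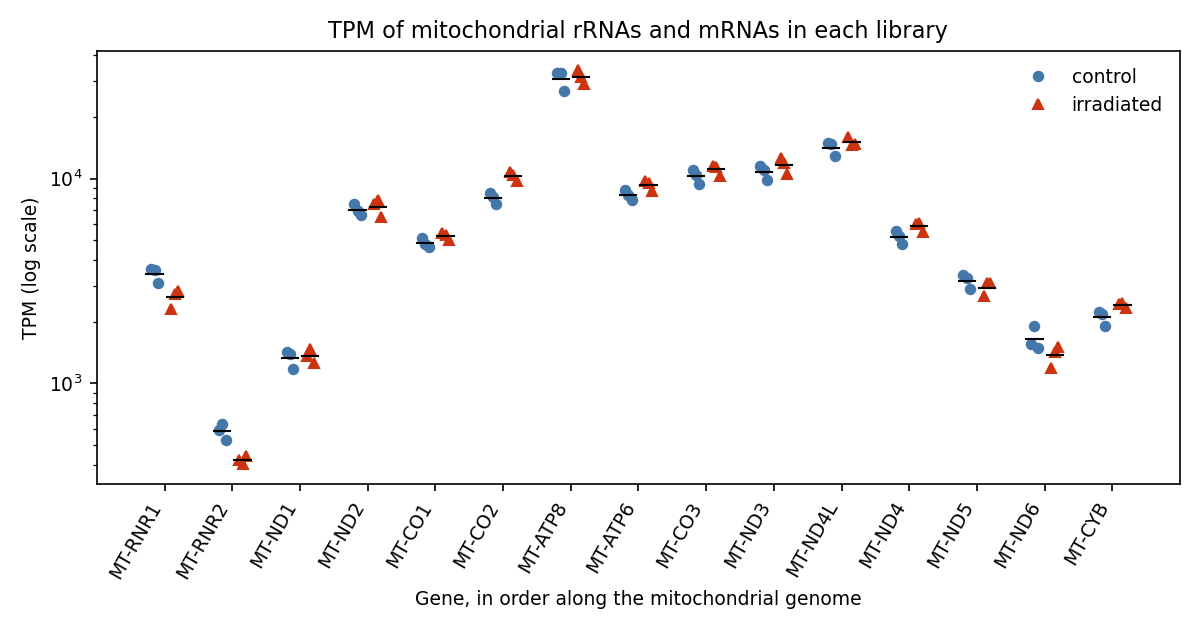
TPM (log axis) of the 2 rRNAs and 13 mRNAs in each library, in order along the mitochondrial genome; circles are controls, triangles irradiated libraries and black lines group means. MT-ATP8 is highest in every library and MT-RNR2 lowest, and the groups separate for MT-RNR1, MT-RNR2, MT-CO2 and MT-CYB.

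The 3 most abundant mRNAs were also the 3 shortest protein-coding genes, at 207, 297 and 346 bases. TPM divides by length, and how length was treated for such short transcripts is not given in the sources used here, so its part in these levels was not tested. MT-ATP8 was 3.74, 3.93 and 3.39 times MT-ATP6 in control replicates 1, 2 and 3, and 3.48, 3.29 and 3.33 times in the irradiated ones, although both genes lie on a shared mRNA. MT-ND4L was 2.68 to 2.81 times MT-ND4 in controls and 2.41 to 2.71 times in irradiated libraries, and this pair too is known as a shared mRNA. Neither ratio separated the groups. On the length-weighted scale MT-ATP8 and MT-ATP6 held 9.07% ± 0.437 and 8.11% ± 0.223 of the mitochondrial total in controls (SD, n = 3). These shares are the same unequal TPM multiplied by gene length (207 and 681 bases). Their nearness therefore does not bring the pair into agreement.

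The rRNAs fell after irradiation and 1 mRNA, MT-CO2, rose. Of the 15 members tested, 1 was higher and 2 were lower with the threshold at 0.05 for p-values that were adjusted by the Benjamini-Hochberg method over all 14621 genes fitted with limma, on the log2(TPM + 1) scale. That is 20.0% of the tested members, beside 10.6% of all tested genes, 6.53% being higher and 4.07% lower. Without adjustment 6 of 15 members had p under 0.05, beside 28.0% of all tested genes. The TPM of the groups did not overlap for 4 of 15 members, or 26.7%, against 34.9% of all tested genes. The median log2 change of the 13 mRNAs was 0.11, beside 0.03 for all tested genes, and 11 of the 13 had positive values, of which 1 passed the test. Among these, MT-ATP6 was at -0.03 after quantile normalization and MT-ND1 at -0.04 with trends in GC content and length removed. Quantile normalization sets each value by its rank in the library alone. MT-ATP6 was at rank 6 or 7 in every library, so that value does not measure its change in level.

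**Figure D2:**
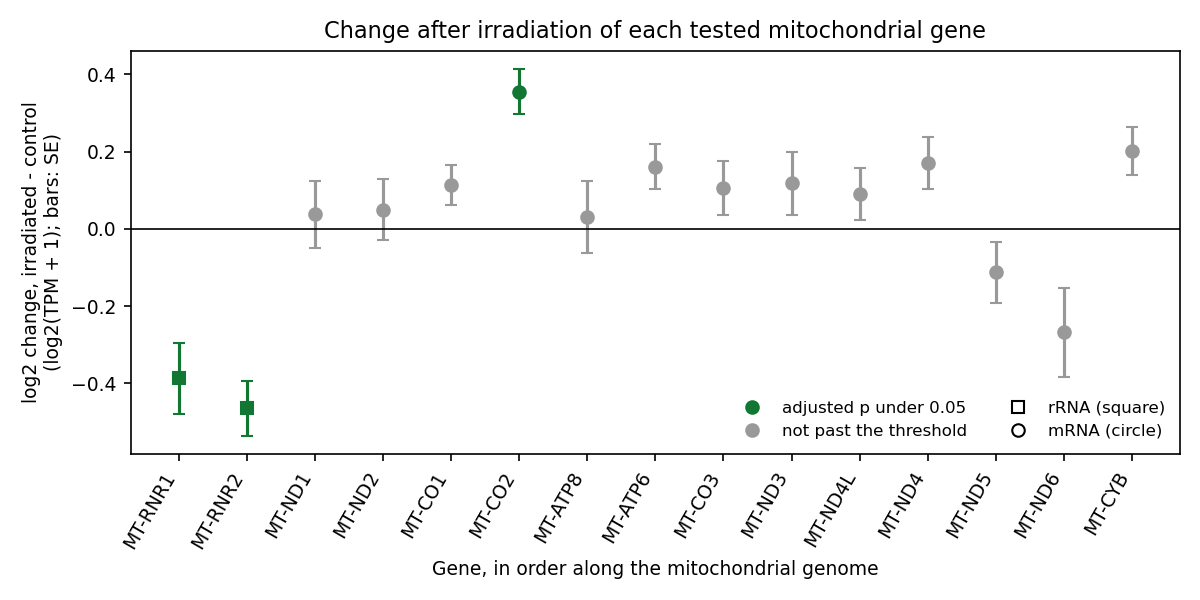
Log2 change of log2(TPM + 1), irradiated minus control, with its standard error for the 15 tested genes in order along the mitochondrial genome (squares rRNAs, circles mRNAs). The genes past the threshold, in green, are MT-RNR1 at -0.39, MT-RNR2 at -0.46 and MT-CO2 at 0.36.

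MT-RNR2 encodes the 16S rRNA of the large ribosomal subunit (ENSG00000210082; chromosome M, 1671 to 3229, plus strand). It stood at 591, 636 and 528 TPM in control replicates 1, 2 and 3 and at 423, 404 and 442 TPM in irradiated replicates 1, 2 and 3. Every irradiated library was below every control. The log2 change was -0.46 ± 0.07 (SE), with an adjusted p of 0.0123 by limma. The call was lost without control replicate 1 (adjusted p = 0.0520), and with no filter on low values (adjusted p = 0.0527).

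MT-RNR1 encodes the 12S rRNA of the small ribosomal subunit (ENSG00000211459; chromosome M, 648 to 1601, plus strand). It stood at 3608, 3589 and 3097 TPM in the controls and at 2309, 2735 and 2843 TPM in the irradiated libraries, again with no overlap, and irradiated replicate 1 was lowest. The log2 change was -0.39 ± 0.09 (SE), with an adjusted p of 0.0401 by limma. This call was the least firm of the 3 members called. Leaving out any library other than control replicate 3 ended it (adjusted p of 0.0583 to 0.127 by limma), as did dropping the filter (0.143) and eBayes without a trend (0.0874). Without irradiated replicate 1, the library with PTPRC at 40.4 TPM, the log2 change was -0.30.

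The 2 rRNAs fell by like amounts. MT-RNR1 was 6.10, 5.64 and 5.87 times MT-RNR2 in controls and 5.45, 6.77 and 6.44 times after irradiation, so the groups overlapped. Their summed TPM was 4199, 4225 and 3624 in controls and 2732, 3139 and 3285 in irradiated libraries, a ratio of means of 0.760. Nuclear non-coding RNAs without long poly(A) tails were looked up after these values were seen. RN7SL1 and RN7SL2, both RNAs of the signal recognition particle, RN7SK, a regulator of transcription elongation, and RPPH1, the RNA of ribonuclease P, all overlapped between groups. Their log2 changes were 0.10, 0.12, 0.39 and 0.21 (SE 0.21, 0.22, 0.22 and 0.48), with adjusted p of 0.282 to 0.811 by limma. Among controls alone RN7SL1 ran from 749 to 1334 TPM and RPPH1 from 8.01 to 22.8 TPM. A fall of the size seen for the rRNAs could therefore go undetected in these RNAs. RMRP, also looked up, was listed at 0 in all libraries. How non-polyadenylated RNA was carried into each library was not tested.

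MT-CO2 encodes subunit 2 of cytochrome c oxidase, complex IV, which receives electrons from cytochrome c (ENSG00000198712; chromosome M, 7586 to 8269, plus strand). It stood at 8530, 8095 and 7518 TPM in the controls and at 10709, 10377 and 9785 TPM in the irradiated libraries. All irradiated libraries were above all controls. The log2 change was 0.36 ± 0.06 (SE), or 1.28-fold, with an adjusted p of 0.0149 by limma. MT-CO2 was rank 7 in every control library and rank 5 in every irradiated one, moving above MT-ATP6. The call was lost without control replicate 2 (adjusted p = 0.0614), with no filter (0.0942) and after median-ratio scaling over nuclear genes (0.0545). Quantile normalization sets values by rank alone. The call of MT-CO2 under it followed from the constant rank within each group and is not further support.

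The other 2 complex IV mRNAs did not pass the test. MT-CO1, the catalytic subunit, averaged 4864 ± 270.5 TPM in controls and 5257 ± 194 after irradiation (SD, n = 3; log2 change 0.11 ± 0.05 SE, adjusted p = 0.204 by limma). MT-CO3 averaged 10306 ± 810.0 and 11079.7 ± 674 TPM in these groups (log2 change 0.11 ± 0.07 SE, adjusted p = 0.373 by limma). The ratio of MT-CO2 to MT-CO1 was 1.65, 1.68 and 1.63 in controls and 1.98, 1.95 and 1.94 in irradiated libraries. This within-library ratio does not depend on the rest of the library, and its spread was small beside the difference between groups. The ratio of MT-CO2 to MT-CO3 separated the groups too, at 0.773 to 0.798 in controls and 0.906 to 0.950 after irradiation. Both ratios were outside the plan and take as numerator the mRNA already called in these libraries, so they are not independent support for its change. With 3 libraries per group an exact two-sided permutation test cannot go below p = 0.1, so none is given for ratios.

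MT-CYB, which encodes cytochrome b, the mitochondrial subunit of complex III, stood at 2231, 2178 and 1908 TPM in controls and 2440, 2471 and 2341 TPM in irradiated libraries. The groups did not overlap, but the change did not pass the threshold (log2 change 0.20 ± 0.06 SE, adjusted p = 0.0827 by limma). Of the complex V mRNAs, MT-ATP6, part of the proton channel, had values of 7906 to 8783 TPM in controls and 8701 to 9702 TPM in irradiated libraries (log2 change 0.16 ± 0.06 SE, adjusted p = 0.123 by limma). MT-ATP8, a small subunit of the same enzyme, had values of 26781 to 32849 TPM and 28939 to 33718 TPM (log2 change 0.03 ± 0.09 SE, adjusted p = 0.859 by limma). Both overlapped between groups.

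None of the 7 complex I mRNAs, which encode proton-pumping membrane subunits of NADH dehydrogenase, passed limma's test after adjustment, and MT-ND4 alone had an unadjusted p under 0.05. MT-ND1 (log2 change 0.04), MT-ND2 (0.05), MT-ND4L (0.09), MT-ND3 (0.12) and MT-ND4 (0.17) had positive values, with adjusted p of 0.144 to 0.817 by limma. MT-ND4 alone of these passed in any alternative, after quantile normalization (adjusted p = 0.0468 by limma). That setting reads rank alone, which ran from 12 to 19 for MT-ND4. MT-ND5, whose product is the largest complex I subunit of this genome, had values of 3386, 3262 and 2882 TPM in controls and 2658, 3078 and 3078 TPM after irradiation (log2 change -0.11 ± 0.08 SE, adjusted p = 0.401 by limma).

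MT-ND6, also of complex I, is the only mRNA among the 9 genes annotated on the minus strand (chromosome M, 14149 to 14673). It is the neighbour of MT-ND5, which is read from the other strand. Its values were 1551, 1908 and 1496 TPM in controls and 1184, 1427 and 1503 TPM after irradiation, which overlap (log2 change -0.27 ± 0.12 SE, adjusted p = 0.180 by limma). Relative to the 12 plus-strand mRNAs it stood at 1.37%, 1.75% and 1.55% in controls and 0.990%, 1.24% and 1.41% after irradiation. The precursor from the other strand runs through this locus, and without stated strand its reads cannot be told apart from those of MT-ND6.

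Members were also taken as shares of the mitochondrial TPM. The shares of 7 of 15 members did not overlap between groups. Divided in the same way by the mitochondrial TPM, 24.4% of all tested genes had no overlap, against 34.9% undivided. Members are part of that sum and other genes are not, so the comparison is uneven and no excess is read from it. MT-CO2 held 7.19%, 7.04% and 7.41% in controls and 8.67%, 8.65% and 8.77% after irradiation. MT-CYB held 1.88% to 1.89% and 1.98% to 2.10%. MT-ATP6 (7.21% to 7.79% against 7.80% to 7.95%) and MT-ND4 (4.54% to 4.73% against 4.88% to 5.04%) were higher by small margins.

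The other 3 shares without overlap were lower. MT-RNR1 held 3.04%, 3.12% and 3.05% in controls and 1.87%, 2.28% and 2.55% after irradiation. MT-RNR2 held 0.498%, 0.553% and 0.520% and then 0.343%, 0.336% and 0.396%. MT-ND5 held 2.85%, 2.84% and 2.84% in controls and 2.15%, 2.56% and 2.76% after irradiation. In irradiated replicate 1 the shares of MT-RNR1, MT-ND5 and MT-ND6 were the lowest of all 6 libraries. MT-ND6 overlapped, at 1.31% to 1.66% and 0.959% to 1.35%, although its log2 ratio of group means, -0.35, was larger in size than those of MT-CO2 (0.27) and MT-ND5 (-0.19).

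**Figure D3:**
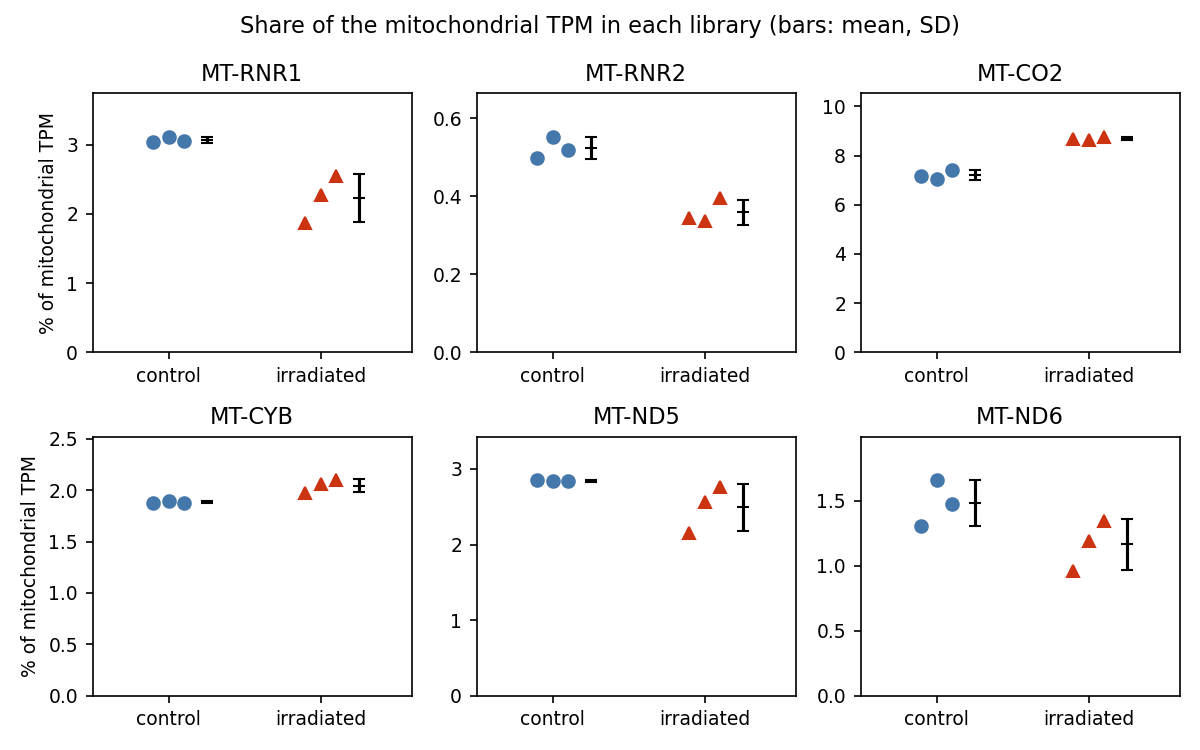
Percent of the mitochondrial TPM held by 6 members in each library (circles controls, triangles irradiated, bars mean and SD, n = 3 per group; each axis starts at 0). MT-CO2 is at 8.65% to 8.77% in irradiated libraries and at 7.04% to 7.41% in controls, while the irradiated values of MT-RNR1 and MT-ND5 spread widely below tight controls.

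By complex, the 3 complex IV mRNAs together held 20.8% ± 0.461 of the mitochondrial TPM in controls and 22.5% ± 0.131 after irradiation (SD, n = 3), with no overlap. MT-CO2 carried most of this, since its mean share went from 7.21% to 8.70%, while those of MT-CO1 (4.36% and 4.44%) and MT-CO3 (9.22% and 9.36%) overlapped between groups. The 7 complex I mRNAs held 38.8% ± 0.298 and 38.5% ± 0.209, and the 2 complex V mRNAs 34.9% ± 0.698 and 34.3% ± 0.738, both overlapping. The difference between the complexes was not tested.

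**Figure D4:**
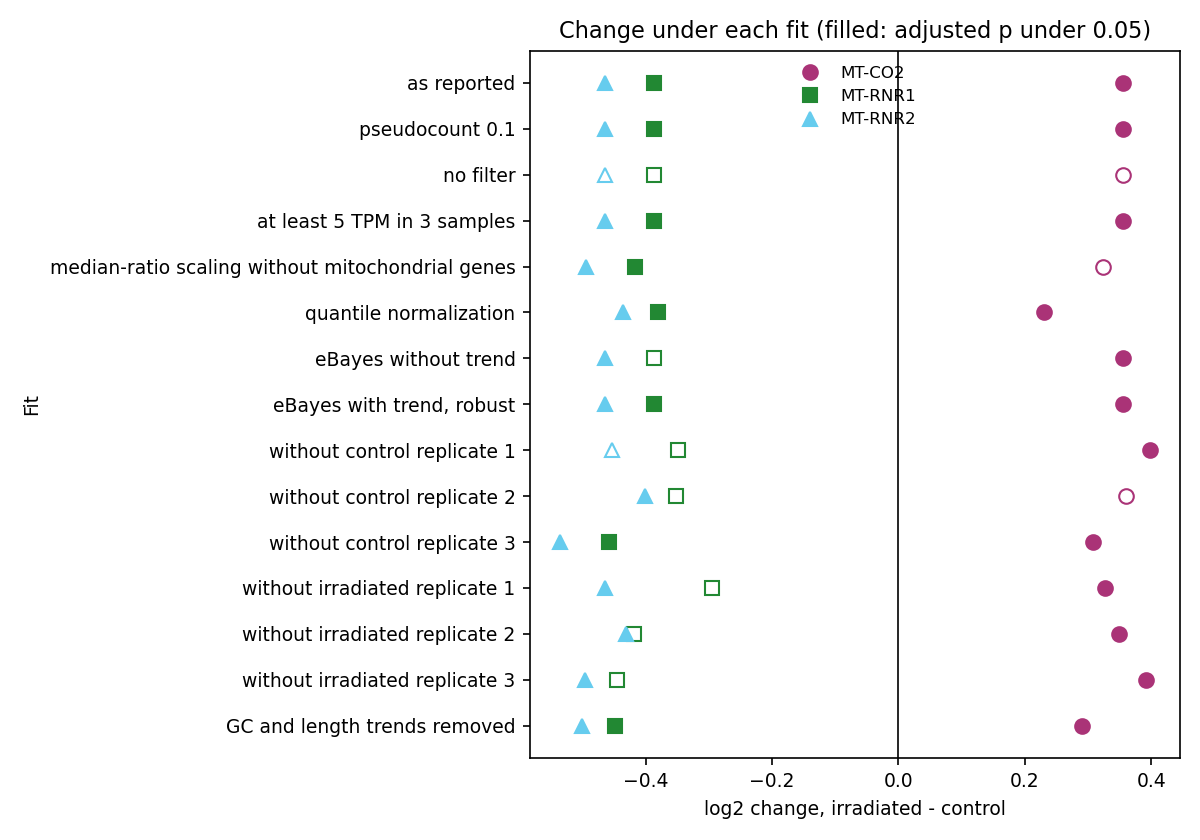
Log2 change of MT-CO2, MT-RNR1 and MT-RNR2 (horizontal axis) in the fit reported and in 14 alternatives (rows); filled symbols passed an adjusted p of 0.05. MT-CO2 stays between 0.23 and 0.40, MT-RNR1 between -0.46 and -0.30 and MT-RNR2 between -0.54 and -0.40, with the call lost in the open symbols. The 0.23 is from quantile normalization, which sets values by rank alone. MT-CO2 was rank 7 in every control and rank 5 in every irradiated library, so its filled symbol there is not support for the call.

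Copies of mitochondrial genes are scattered through the nuclear genome, and reads from the mitochondrion can be assigned to them. Exact 31-base words of MT-CO1 were found in nuclear GENCODE transcripts at 66.7% of its positions, those of MT-ATP6 at 62.8%, of MT-ND2 at 56.9%, of MT-CO2 at 50.5% and of MT-RNR2 at 31.7%. MT-RNR1 had none, and MT-ND3 and MT-CYB had 3.48% and 4.95%. Values of genes with many shared words are uncertain where the counting split reads between copies. The table held 415 rows named as such copies, of which 6 were tested and limma called 0, with 0 at an unadjusted p under 0.05. MTATP6P1, the copy nearest to MT-ATP6, stood at 692 to 831 TPM in controls and 701 to 739 TPM after irradiation (log2 change -0.09, adjusted p = 0.445 by limma). MTCO1P12 stood at 69.0 to 95.5 and 82.6 to 96.2 TPM (log2 change 0.11, adjusted p = 0.613 by limma), and MTCO2P12, the nearest copy of MT-CO2, did not exceed 0.59 TPM. No level is given here for MTRNR2L12, which shared 22.4% of the words of MT-RNR2.

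Nuclear genes that make and handle these RNAs were counted by list, beside the 10.6% called among all tested genes. Of 9 mitochondrial transcription genes, 1 fell and none rose: MTERF3, a negative regulator of mitochondrial transcription, at 27.6, 30.0 and 27.4 TPM in controls and 23.9, 22.5 and 22.6 TPM after irradiation (log2 change -0.29 ± 0.06 SE, adjusted p = 0.0341 by limma). In this list 2 were lower after median-ratio scaling and 3 with trends in GC content and length removed, and without irradiated replicate 2 the list had 1 higher and 0 lower. Of 12 RNA cleavage and processing genes limma called 0, with 2 at an unadjusted p under 0.05, and the most abundant were TBRG4, a FASTK family RNA-binding protein (log2 change -0.06), and HSD17B10, a subunit of mitochondrial RNase P (0.03). Of 8 genes of mRNA stability and decay 0 were called, with 1 at an unadjusted p under 0.05. Among them SLIRP, which binds mitochondrial mRNAs together with LRPPRC, had a log2 change of -0.20 ± 0.06 SE (adjusted p = 0.0762 by limma), and REXO2, an oligoribonuclease, one of 0.02.

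Of 11 genes for rRNA modification, RPUSD3, a pseudouridine synthase family member, rose, with 59.7 ± 4.67 TPM in controls and 71.6 ± 1.96 after irradiation (SD, n = 3; log2 change 0.26 ± 0.06 SE, adjusted p = 0.0449 by limma), and none fell. The call was lost after median-ratio scaling (adjusted p = 0.0706), and with trends in GC content and length removed (log2 change 0.18, adjusted p = 0.0804), where the list had 0 higher and 1 lower. Of 18 tRNA modification genes 0 were called by limma, with 5 at an unadjusted p under 0.05, and 1 or 2 were called as higher in 7 of the 16 alternatives. The most abundant, NSUN2, an RNA methyltransferase, and TRMU, an enzyme that adds sulfur to tRNA, had log2 changes of -0.13 and 0.07. The median log2 changes of these 5 lists lay between -0.06 and 0.01, beside 0.03 for all tested genes.

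Of 16 genes of mitochondrial DNA replication and upkeep 2 were higher and 2 lower, beside 6.53% higher and 4.07% lower among all tested genes. MPV17, an inner membrane protein needed to maintain mitochondrial DNA, stood at 38.5, 36.0 and 41.5 TPM in controls and 60.2, 64.0 and 66.7 TPM after irradiation. Its log2 change of 0.705 ± 0.07 SE (adjusted p = 0.00375 by limma) held in all 16 alternatives. PRIMPOL, a primase-polymerase, rose (log2 change 0.42, adjusted p = 0.0247 by limma). LIG3, the mitochondrial DNA ligase, fell (-0.42, adjusted p = 0.0381), and so did TWNK, the replicative helicase (-0.24, adjusted p = 0.0443). PRIMPOL and LIG3 also act in the nucleus. With any 1 library left out, the log2 changes of the called genes in these lists kept their direction (-0.32 to -0.25 for MTERF3, -0.28 to -0.22 for TWNK). Most of the calls were lost. Those of MTERF3 and TWNK were lost whichever library was left out, those of PRIMPOL and LIG3 whichever was left out except irradiated replicate 2, and that of RPUSD3 whichever was left out except control replicate 3.

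The nuclear-encoded partners of the mitochondrial mRNAs were read in the same fit. Of all tested genes 6.53% were called higher, and their median log2 change was 0.03. Of 37 complex I subunits 6 rose and none fell, with a median log2 change of 0.09. The 4 with the largest changes were NDUFA13 (0.27), NDUFB2 (0.24), NDUFV1 (0.24) and NDUFS3 (0.21), with adjusted p of 0.0288 to 0.0490 by limma. Of 11 complex IV subunits 3 rose and none fell, with a median of 0.13. NDUFA4 rose by a log2 change of 0.33, COX7A2 by 0.30 and COX6A1 by 0.24, the last of them from 1253 ± 66.8 to 1480.0 ± 52.2 TPM (SD, n = 3), with adjusted p of 0.0256 to 0.0277 by limma.

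These calls in complexes I and IV were close to the threshold. Both counts were 0 with no filter, with eBayes without trend and after median-ratio scaling over nuclear genes. They were also 0 without control replicate 1 or 2, and without irradiated replicate 3. In those fits the changes of the named genes moved less: after median-ratio scaling they were 0.24 for NDUFA13, 0.27 for COX7A2 and 0.30 for NDUFA4. The complex I median was 0.11 without control replicate 2 and 0.06 without control replicate 1. Without irradiated replicate 1 the complex I count was 1, and without irradiated replicate 2 it was 1 higher and 2 lower, with 1 complex IV call. With trends in GC content and transcript length removed, 1 complex I subunit was higher and 3 were lower, and the 3 complex IV calls stood. The named complex I calls were all lost there. Their log2 changes were 0.19 for NDUFB2, 0.11 for NDUFA13 and NDUFV1 and 0.09 for NDUFS3, and the complex I median was 0.04. Of 18 complex V subunits ATP5PD rose (log2 change 0.26, adjusted p = 0.0171 by limma) and ATP5MC2, a subunit of the proton-carrying ring, fell (-0.21, adjusted p = 0.0235 by limma). Both calls were lost without control replicate 1 or 2 (adjusted p of 0.0561 and 0.0626 for ATP5PD, 0.0817 and 0.0914 for ATP5MC2), and that of ATP5MC2 also without irradiated replicate 1 (0.0513) or 3 (0.0724). With trends in GC content and length removed 1 complex V subunit was higher and 3 were lower. Of 9 complex III subunits limma called 0, with 0 at an unadjusted p under 0.05, and the most abundant, UQCRH and UQCRC1, had log2 changes of 0.02 and 0.03.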

How the data were processed

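Per the labels' protocols, libraries were made with a TruSeq RNA kit from 1 μg of total RNA. Per the submitters' processing notes, HISAT2, StringTie, RSEM and hg38 were used; no version, role or order is stated. The authors deposited TPM values for 61280 rows, 20671 without a symbol. Every column has the same total within rounding, so read depth and counting intervals cannot be given. Groups came from sample titles. Rows with at least 1 TPM in 3 of the 6 samples (14621) were fitted as log2(TPM + 1) with limma 3.58.1 in R 4.3.3 (two-sided, eBayes with trend, Benjamini-Hochberg, threshold 0.05), with 3.39 prior and 4 residual degrees of freedom. On simulated tables with 14621 genes, 16.0% of changes of 0.3, 40.0% of 0.5, 82.0% of 1 and 94.0% of 2 (log2) were recovered, and 5 of 121 calls were false. The simulation changed only 50 genes at each size, while the data gave 1550 calls. Adjustment was therefore stricter in the simulation, and these rates are not the sensitivity of the reported fit. The members and lists were chosen with earlier results of these data known. All mRNA, rRNA and tested tRNA members were named, and in each nuclear list up to 4 called genes with the largest changes, or the 2 most abundant where none was called. RN7SL1, RN7SL2, RN7SK, RMRP, RPPH1, MTCO2P12 and PTPRC values were chosen after they were seen. The ratios of MT-CO2 to MT-CO1 and to MT-CO3 were not among those planned. At most 0.479% of tested rows had identical values in 2 libraries of a group. Alternatives changed the pseudocount, filter, scaling or eBayes setting, left out single libraries, or added replicate numbers as a block. Removal of GC content and length trends, and removal of mitochondrial rows, were chosen after seeing the data.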

Additional observations from a re-analysis of the deposited data

How the results depend on the processing

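Limma called 1550 of all tested genes (955 higher, 595 lower), 497 with no filter, 993 with eBayes without trend, 362 with the replicate block, and 346 (without control replicate 2) to 1414 with 1 library left out. The split was 779 higher and 852 lower after median-ratio scaling, and 844 and 1477 (2321 in all) with GC content and length trends removed. The 3 calls among mitochondrially encoded genes became 0 with no filter, where 32164 rows were tested and 4 members had an unadjusted p under 0.05, 1 with the replicate block (MT-CO2), and 1 to 3 with 1 library left out (1 without control replicate 1 or 2). No call among them changed direction. The 17 calls in the nuclear lists (13 higher, 4 lower) became 8 higher and 14 lower with GC content and length trends removed, 2 with no filter, 9 (4 higher, 5 lower) after median-ratio scaling, 3 with eBayes without trend, 1 with the replicate block, and 1 to 14 with 1 library left out.

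Deviations of same-numbered libraries correlated at 0.03, -0.06 and -0.03 over all tested genes. No pairing by number was seen at that scale, so the block result is reported only in this section. The mitochondrial TPM sum did fall from replicate 1 to replicate 3 in both groups, and pairing of the members was not tested. With the block 10 of 15 members had an unadjusted p under 0.05 by limma, against 6 without it.

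Uncalled log2 changes that turned sign were all small. With GC content and length trends removed they were -0.0393 for MT-ND1, -0.117 for HSD17B10, -0.0522 for REXO2, -0.0544 for TRMU, -0.1105 for UQCRC1 and -0.0739 for UQCRH. After median-ratio scaling they were -0.0128 for REXO2, -0.0058 for UQCRC1 and -0.0141 for UQCRH, and after quantile normalization -0.027 for MT-ATP6. The value for MT-ATP6 reflects its rank only (6 or 7 in every library), not a fall in TPM. With 1 library left out the ranges were -0.0513 to 0.0937 for MT-ND1, -0.006 to 0.1306 for MT-ND2, -0.0651 to 0.0875 for MT-ATP8, -0.0073 to 0.0672 for HSD17B10, -0.0145 to 0.0526 for REXO2, -0.0009 to 0.0592 for UQCRC1 and -0.0346 to 0.1964 for MTCO1P12.

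The difference in mRNA percent of the mitochondrial TPM was 1.00 points, 1.69 when weighted by gene length, and 0.813 to 1.18 with 1 library left out. TPM keeps no read depth, so precision rests on 3 libraries per group.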
